A study of Mus musculus with 18 samples.

Results

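The genes described here are Srebf1, which encodes the transcription factor SREBP-1, and 9 genes of fatty acid synthesis and its branches, Acly, Acaca, Acacb, Fasn, Elovl6, Scd1, Me1, Gpam and Thrsp. They were chosen by symbol as the rows of the deposited table that bear these names, and all 10 are found among its 18946 genes. De novo lipogenesis turns surplus carbohydrate into fatty acids in the liver. Cytosolic citrate is cleaved to acetyl-CoA, acetyl-CoA is carboxylated to malonyl-CoA, malonyl-CoA is built into palmitate, and palmitate is elongated, desaturated and esterified to glycerol. In fed liver insulin raises the amount of Srebf1 mRNA and the cleavage of the membrane-bound SREBP-1 precursor, whose released part enters the nucleus and raises transcription of the enzymes.

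RNA was sequenced from livers of 10 Old and 8 Young male C57BL/6J mice, an inbred laboratory strain. The labels put the Old mice at 19.76 and the Young mice at 6.18 months of age, while other text of the submitters has them at 20 and 6 months and, in the growth protocol, the Old ones at 21 months. Every mouse of both ages was fasted overnight and then received insulin in a hyperinsulinemic-euglycemic clamp, in which infused glucose holds blood glucose level, so no liver without insulin was compared. RNA came from the AllPrep kit in 5 Old and 3 Young livers and from the RNeasy kit in 5 Old and 5 Young livers. The labels give each library to its own mouse.

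The recovered reads per library were 106948396 ± 11475262 in Old livers (SD, n = 10) and 106638287 ± 14397482 in Young livers (SD, n = 8), so that even Thrsp, the member with the fewest reads, had 586 to 6095 reads in a library. Levels are given as scaled TPM, the deposited TPM (read share corrected for gene length) after a composition factor that brings the libraries to a common level, and they are per gene length. The liver of Old replicate 14, an RNeasy library, stood apart: its median correlation with the other Old libraries was 0.9411, against 0.9702 to 0.9841 for the other Old livers and 0.9814 to 0.9886 for the Young livers. Each age difference is therefore given with and without that liver. The summed level of 8 hepatocyte markers was 80215 to 125077 scaled TPM in Old livers (122905 in replicate 14) and 81580 to 117418 in Young livers, most of it Alb. Without Alb the other 7 summed to 10899 to 29604 scaled TPM in Old livers, lowest in replicate 14, and to 23498 to 31103 in Young livers. The fitted age fold was below 0 for 7 of the 8, with 0 called over all libraries and Tat called lower without replicate 14. Of 5 adipocyte markers Cfd alone was found by symbol among the genes given, while Adipoq, Lep, Retn and Plin1 were not. Cfd had 0.447 to 16.5 scaled TPM in Old livers, lowest in replicate 14, and 2.33 to 8.28 in Young livers. The summed level of 8 macrophage markers was 104 to 322.4 scaled TPM in Old livers (229.9 in replicate 14) and 113.3 to 223.2 in Young livers. Of the 8, 2 were called higher in Old livers, Trem2 and Gpnmb, against 2.44% of all genes tested, and 0 lower. The fitted age fold was above 0 for 6 of the 8 and below 0 for 2. Median Timd4 was 6.84 scaled TPM in Old and 8.18 in Young livers, and median Marco was 10.9 and 15.7. The part of these other cell types in the results was not tested. In bulk tissue, fewer cells of a type and less RNA per cell cannot be told apart.

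Windows around listed transcription starts are shown for Srebf1 and for the 4 genes whose level went with that of Srebf1 in both ages. The letters can so be read beside the values that follow. Which start these livers used was not tested. A window, also that of Acaca with its 1 listed start, is therefore not shown to be the promoter used in liver. RefSeq windows of 300 bases on GRCm38.p6 (250 before and 50 after the start) were found for 9 of the 10 genes; Scd1 had none. Capitals mark the CCAAT box (CCAAT or its reverse complement ATTGG), which the factor NF-Y binds, and the GC box (GGGCGG or CCGCCC), which Sp1 binds, with overlapping matches joined. The window of Fasn lies at chr11:120824498-120824797, that of Acly at chr11:100527951-100528250, that of Acaca at chr11:84195188-84195487, that of Thrsp at chr7:97417501-97417800 and that of the third of 3 listed starts of Srebf1, the one with both kinds of box, at chr11:60210422-60210721, Acaca on the plus and the others on the minus strand, printed 5′ to 3′ of the gene.
Fasn: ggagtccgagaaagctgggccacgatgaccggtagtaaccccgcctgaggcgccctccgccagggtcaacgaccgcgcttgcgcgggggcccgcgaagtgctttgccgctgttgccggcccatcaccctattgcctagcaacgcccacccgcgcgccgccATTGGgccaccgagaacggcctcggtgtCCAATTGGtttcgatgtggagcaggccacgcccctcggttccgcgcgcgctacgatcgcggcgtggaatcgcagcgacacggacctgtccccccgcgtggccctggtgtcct
Acly: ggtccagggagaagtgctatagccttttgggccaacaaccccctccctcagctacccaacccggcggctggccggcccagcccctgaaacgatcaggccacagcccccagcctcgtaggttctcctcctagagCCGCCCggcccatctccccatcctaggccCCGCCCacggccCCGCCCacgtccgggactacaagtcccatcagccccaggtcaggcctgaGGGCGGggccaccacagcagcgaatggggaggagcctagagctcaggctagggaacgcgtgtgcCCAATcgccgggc
Acaca: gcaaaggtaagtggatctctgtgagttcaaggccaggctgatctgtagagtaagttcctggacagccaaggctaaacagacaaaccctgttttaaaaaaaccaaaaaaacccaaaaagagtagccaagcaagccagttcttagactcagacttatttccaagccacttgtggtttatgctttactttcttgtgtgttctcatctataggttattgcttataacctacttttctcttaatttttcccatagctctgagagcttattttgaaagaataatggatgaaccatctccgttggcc
Thrsp: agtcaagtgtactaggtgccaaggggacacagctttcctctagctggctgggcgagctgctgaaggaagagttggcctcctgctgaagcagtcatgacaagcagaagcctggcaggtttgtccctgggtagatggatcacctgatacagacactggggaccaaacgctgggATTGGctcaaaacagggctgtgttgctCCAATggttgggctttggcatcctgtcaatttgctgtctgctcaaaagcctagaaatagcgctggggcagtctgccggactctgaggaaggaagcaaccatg
Srebf1: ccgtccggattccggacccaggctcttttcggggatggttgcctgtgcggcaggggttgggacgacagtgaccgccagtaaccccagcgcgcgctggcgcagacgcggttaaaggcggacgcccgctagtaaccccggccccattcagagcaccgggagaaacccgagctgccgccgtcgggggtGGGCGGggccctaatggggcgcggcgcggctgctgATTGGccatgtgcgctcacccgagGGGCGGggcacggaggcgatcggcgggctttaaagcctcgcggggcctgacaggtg
Fasn held 3 CCAAT boxes, 2 of which overlap, and Thrsp held 2. Acly held 1 CCAAT box and 4 GC boxes. The third start of Srebf1, the only 1 of its 3 with both kinds of box, held 1 CCAAT box and 2 GC boxes. The first start of Srebf1 held 1 CCAAT box and 0 GC boxes, and the second held 0 CCAAT boxes and 3 GC boxes. The windows of Acaca and Elovl6, each at its 1 listed start, held neither box. Members that did not pass with Srebf1 over all livers of either age held boxes too. Acacb held 1 CCAAT box. Gpam held 1 CCAAT box at its first start and 1 GC box at its second. Me1 held 4 GC boxes at its first start and 1 CCAAT box at its second. A CCAAT box was present in 37.4% and a GC box in 35.7% of all 32851 RefSeq windows of this length, searched on both strands. None of the windows of the 9 genes held the sterol regulatory element TCACNCCAC (1.24% of all windows), the E-box CACGTG (7.15%) or the DR4 element of the liver X receptor, a direct repeat of AGGTCA spaced by 4 bases (0.0152%), searched in the same way. A match is a description of the letters, not evidence of binding. Only these exact letters were searched, so sites that differ from them in any base were not counted. A window without a match is therefore not shown to lack such a site.

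None of the 10 genes passed the test of age over all libraries. With terms for age and kit in limma, 0 of 10 had a Benjamini-Hochberg adjusted p under 0.05, against 682 of 13895 genes tested (4.91%). Of those 682 genes 339 were higher (2.44%) and 343 lower (2.47%) in Old livers, against 341 higher and 188 lower with no composition factor, which moves the median of all genes to 0.0546. At an unadjusted limma p under 0.05 there were 5 of the 10, beside 3254 of the 13895 genes tested. Limma-voom on recovered reads likewise called 0 of the 10 (4.7% of the genes tested). It had 5 of the 10 at an unadjusted p under 0.05, beside 3261 of all genes tested. The fitted log2 fold, Old minus Young, was above 0 for 9 of the 10 genes, with a median of 0.45, beside a median of 0.0037 and 50.9% above 0 over all genes tested. Without Old replicate 14 the median of the 10 was 0.31, and Gpam alone was called, against 7.02% of the genes tested. The levels of all 10 genes overlapped between the ages, as did those of all but 0.417% of the genes tested.

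**Figure D1:**
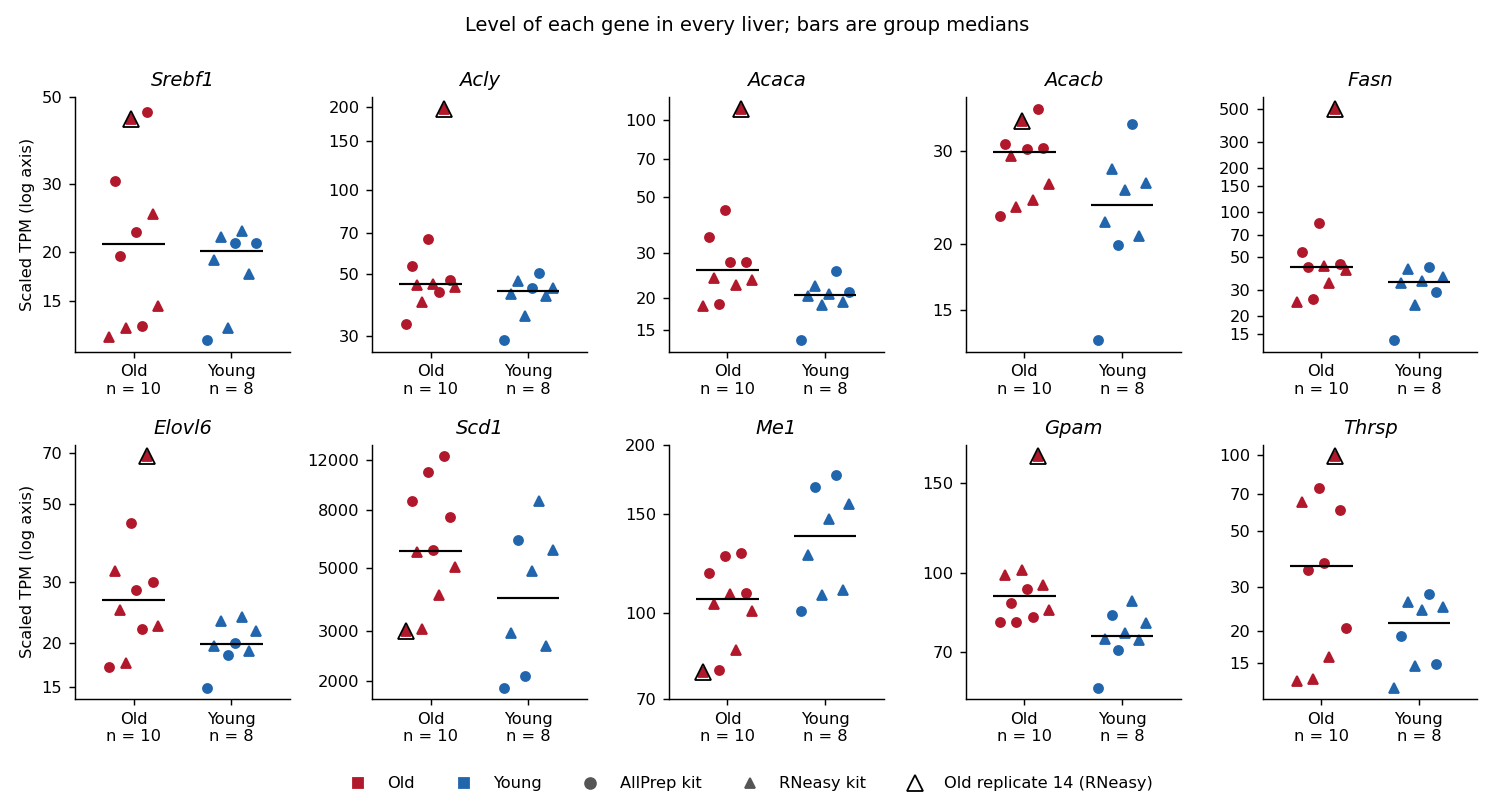
Scaled TPM (log axes, each with its own range) of the 10 genes in each of 10 Old livers (left, red) and 8 Young livers (right, blue); circles are AllPrep and triangles RNeasy libraries, bars are medians, and an outlined triangle marks Old replicate 14. Old replicate 14 stands above all other livers for Fasn at 500.4 scaled TPM and is the lowest Old liver for Scd1 at 2995.

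Srebf1 spread more widely among Old livers than among Young livers. Its level was 12.2 at the lowest, 21.1 at the median and 45.8 at the highest in Old livers, and 11.9, 20.1 and 22.7 scaled TPM in Young livers. Old replicates 8 and 14 were the high ones, at 45.8 and 44.0, and 5 of the 10 Old livers lay below the Young median. The log2 fold was 0.22 ± 0.26 (SE; adjusted p = 0.638 by limma), and 0.07 ± 0.23 (adjusted p = 0.882) without Old replicate 14. In the RNeasy libraries without that liver it was -0.26.

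Acly, ATP citrate lyase, supplies cytosolic acetyl-CoA. It had 33.2, 46.0 and 196.5 scaled TPM at the lowest, median and highest Old liver, against 29.0, 43.4 and 50.7 scaled TPM in Young livers. Replicate 14 held the highest value, and the next Old liver, replicate 8, had 66.8. The log2 fold was 0.38 ± 0.25 (SE; adjusted p = 0.365 by limma), and 0.14 ± 0.13 without Old replicate 14 (adjusted p = 0.509).

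The acetyl-CoA carboxylases make malonyl-CoA, Acaca in the cytosol for synthesis and Acacb at the mitochondrial surface, where malonyl-CoA restrains fatty acid import. Acaca had 18.7, 25.9 and 110.5 scaled TPM at the lowest, median and highest Old liver and 13.7, 20.6 and 25.6 in Young livers. For Acaca 8 of 10 Old livers lay above the Young median, replicate 14 far above the rest, and the log2 fold was 0.58 ± 0.27 (SE; adjusted p = 0.195 by limma), or 0.34 ± 0.15 without replicate 14 (adjusted p = 0.177). Acacb did not share the high value of replicate 14: it had 22.7, 29.9 and 36.1 scaled TPM in Old livers and 13.2, 23.7 and 33.8 in Young livers, and replicate 14 stood at 34.2. Its log2 fold was 0.31 ± 0.14 (SE; adjusted p = 0.199 by limma), and 0.28 ± 0.15 without that liver (adjusted p = 0.252).

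Fasn, fatty acid synthase, makes palmitate. Its lowest, median and highest level was 24.7, 42.8 and 500.4 scaled TPM in Old livers and 13.7, 33.7 and 42.5 in Young livers. Apart from replicate 14 the highest Old liver was replicate 8 at 84.1, and 3 of the 10 Old livers were below the Young median. The log2 fold was 0.84 ± 0.44 (SE; adjusted p = 0.264 by limma) and became 0.42 ± 0.24 (adjusted p = 0.297) without replicate 14.

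Elovl6 lengthens palmitate to stearate, and Scd1 puts the first double bond into stearate and palmitate. Elovl6 had 17.1, 26.7 and 68.7 scaled TPM at the lowest, median and highest Old liver, against 14.9, 19.9 and 23.8 scaled TPM in Young livers. For Elovl6 8 of 10 Old livers were above the Young median, with a log2 fold of 0.51 ± 0.21 (SE; adjusted p = 0.156 by limma) and of 0.35 ± 0.16 without replicate 14 (adjusted p = 0.189). Scd1 was by far the most abundant of the 10 transcripts per length, with 2995, 5714 and 12374 scaled TPM in Old livers and 1889.5, 3915 and 8613 in Young livers. Old replicate 14 was the lowest Old liver for Scd1. The log2 fold of Scd1 was 0.58 ± 0.34 (SE; adjusted p = 0.313 by limma), and 0.69 ± 0.34 without that liver (adjusted p = 0.214).

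For Scd1 the 2 kits gave folds of unlike size, but the difference between them did not pass the test over all genes. In AllPrep libraries Scd1 had 5764, 8615 and 12374 scaled TPM at the lowest, median and highest of 5 Old livers and 1889.5, 2069.9 and 6251 in 3 Young livers. In RNeasy libraries it had 2995, 4023 and 5665 in 5 Old livers and 2650, 4888 and 8613 in 5 Young livers, so that the Old median was above the Young one with the first kit and below it with the second. The log2 fold of Scd1 was 1.59 ± 0.41 in AllPrep libraries alone (SE; adjusted p = 0.104 by limma) and -0.17 ± 0.33 in RNeasy libraries alone (adjusted p = 0.884). The interaction of kit and age was -1.76 ± 0.56 for Scd1, with an unadjusted limma p of 0.006 and an adjusted p of 0.975; without Old replicate 14 it was -1.65 ± 0.57 (adjusted p = 0.483). The interaction called 0 of the 10 genes and 0 of 13895 genes tested (0%), 587 of which had an unadjusted p under 0.05.

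Me1 and Gpam had the smallest SE among the members, and every Old liver lay on 1 side of the Young median. Me1, cytosolic malic enzyme, yields NADPH for synthesis and was the only gene of the 10 whose fitted fold lay below 0 over all libraries. It had 78.1, 105.8 and 127.9 scaled TPM at the lowest, median and highest Old liver and 100.8, 137.2 and 176.4 in Young livers, and all 10 Old livers were below the Young median although the ranges overlap. The log2 fold of Me1 was -0.41 ± 0.12 (SE; adjusted p = 0.0605 by limma) and -0.38 ± 0.12 without Old replicate 14 (adjusted p = 0.0741); of the libraries left out in turn, it passed without Young replicate 10 (adjusted p = 0.027; 2.59% of the genes tested were called) and not without any other. Gpam, the mitochondrial acyltransferase that starts glycerolipid synthesis, had 80.0, 90.1 and 169.6 scaled TPM at the lowest, median and highest Old liver and 59.5, 75.1 and 88.2 in Young livers. All 10 Old livers were above the Young median of Gpam. Its log2 fold was 0.36 ± 0.11 (SE; adjusted p = 0.0583 by limma).

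Without Old replicate 14 the fold of Gpam was smaller and its error smaller still, 0.27 ± 0.06 (SE; adjusted p = 0.0202 by limma), and it was called higher in Old livers. It was likewise called without Old replicate 16 (adjusted p = 0.0359; 6.65% of the genes tested were called) and without Young replicate 13 (0.0447; 3.4%). The same held with no composition factor (adjusted p = 0.0489; 3.81%) and with library quality weights (0.016; 10.1%). Within the kits the log2 fold of Gpam was 0.26 ± 0.12 in AllPrep libraries (adjusted p = 0.262) and 0.27 ± 0.07 in RNeasy libraries without Old replicate 14 (adjusted p = 0.153). That of Me1 was -0.38 ± 0.21 in AllPrep libraries (adjusted p = 0.358) and -0.38 ± 0.12 in those RNeasy libraries (adjusted p = 0.232). For both genes the values differed between the kits by less than their SE.

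Thrsp, Spot 14, encodes a nuclear and cytosolic protein that follows lipogenic stimuli and acts on acetyl-CoA carboxylase activity together with its paralogue Mid1ip1. Thrsp had 12.7, 36.2 and 99.0 scaled TPM at the lowest, median and highest Old liver and 12.0, 21.6 and 28.1 in Young livers. The Old livers were spread out: 4 of 10 were below the Young median, and replicates 7, 8, 14 and 15 were at 60.8 or more. The log2 fold of Thrsp was 0.74 ± 0.38 (SE; adjusted p = 0.257 by limma), and 0.51 ± 0.34 without replicate 14 (adjusted p = 0.377).

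**Figure D2:**
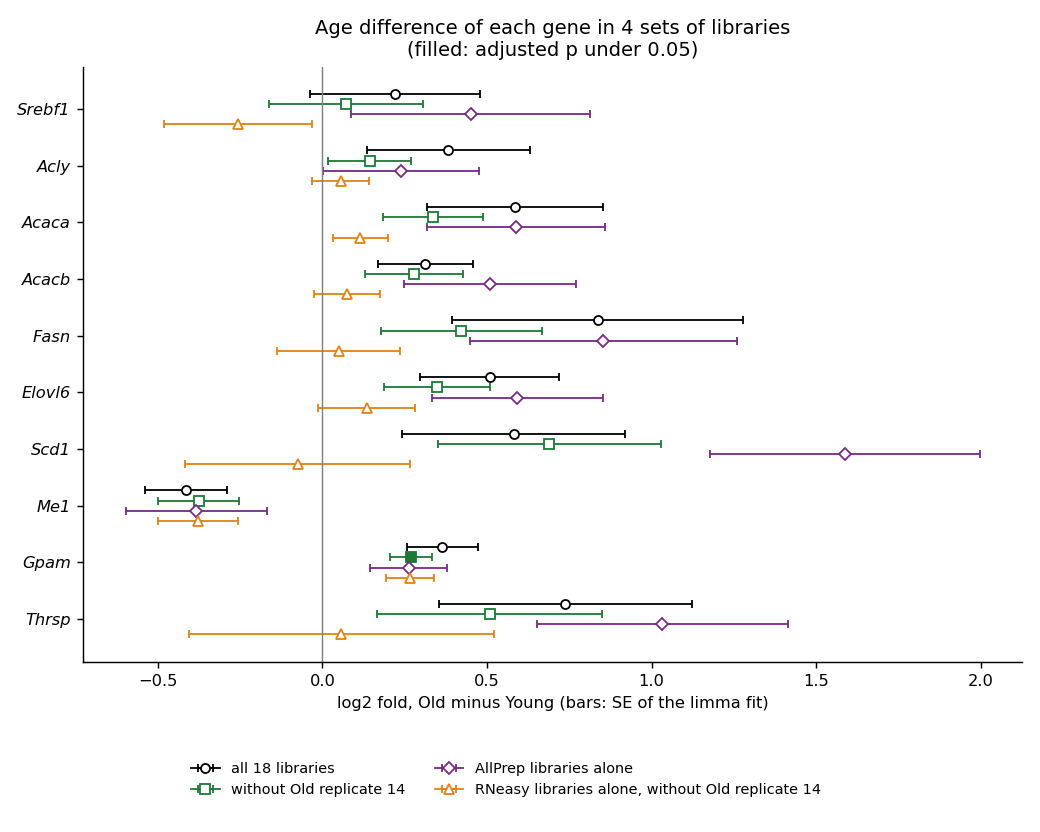
Log2 fold, Old minus Young, of each of the 10 genes (rows) in 4 sets of libraries, with bars for the SE of the limma fit; a filled marker has an adjusted p under 0.05, which holds for Gpam without Old replicate 14. Me1 and Gpam keep nearly the same fold in both kits, whereas Scd1 stands at 1.59 in AllPrep libraries and at -0.08 in RNeasy libraries without Old replicate 14.

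With the kits taken apart, the median of the members was higher in AllPrep libraries than in RNeasy libraries without Old replicate 14. In 5 Old against 3 Young AllPrep livers the median log2 fold of the 10 genes was 0.55, with 0 called (1.13% of the genes tested were called). An unadjusted limma p under 0.05 was reached by 3 of the 10, beside 2666 of the 13895 genes tested. Young replicate 1, 1 of these 3 Young AllPrep livers, was the lowest Young liver for 8 of the 10 genes. The AllPrep folds were not computed without it. In 4 Old against 5 Young RNeasy livers, without Old replicate 14, the median was 0.056, with 0 called (0.446% of the genes tested). In these RNeasy livers 2 of the 10 had an unadjusted limma p under 0.05, beside 1791 of all genes tested. There Fasn stood at 0.05 ± 0.19, Acaca at 0.11 ± 0.08, Acly at 0.06 ± 0.09 and Thrsp at 0.06 ± 0.46 on the log2 scale. With Old replicate 14 among the RNeasy libraries the median was 0.45, with 0 called (0.0864% of the genes tested). That liver alone thus moved the median from near 0. The difference between the kits was called for 0 of the 10 genes, also without Old replicate 14 (0.0216% of the genes tested). With clamp weight as a further term 0 were called either (0.0216%).

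Old replicate 14 had the most Fasn, Acly and Acaca of all 18 livers and the least Scd1 of the 10 Old livers, just under the 3033 scaled TPM of replicate 16. Against the median of the other 9 Old livers it had 11.7 times as much Fasn, which ranked 36 of 13895 genes by this ratio with the pseudocount. The ratio was 4.59 for Acaca, 4.29 for Acly, 2.82 for Thrsp, 2.77 for Elovl6, 2.25 for Srebf1 and 1.95 for Gpam. It was 1.16 for Acacb, 0.725 for Me1 and 0.520 for Scd1. Replicate 14 was the highest Old liver for 6 of the 10 genes and the lowest for 2, where over all genes tested it was highest for 22.1% and lowest for 29.5%. Over all genes tested and with the pseudocount, 6.42% stood more than 2-fold above the median of the other Old livers in replicate 14 and 4.53% more than 2-fold below it.

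Related genes outside the 10 differed among themselves in that liver. The ratio was above 1 for 6 of 6 tested other SREBP-1 responsive genes, 10 of 18 processing and upstream factors, 6 of 9 genes that control the carboxylases, 7 of 13 paralogues and 3 of 11 genes of later glycerolipid steps, against 48.1% of all genes tested. Scd2, a desaturase paralogue of low level in adult liver, had 111.1 scaled TPM in Old replicate 14 and 2.19 to 5.25 in the other Old livers, against 2.59 to 4.32 in Young livers. Pnpla3, a lipase-like SREBP-1 responsive gene too low to be tested, had 6.08 scaled TPM there and at most 0.490 in the other Old livers, against at most 0.206 in Young livers. The ratio to the median of the other Old livers was 3.71 for Pgd and 2.93 for G6pdx, enzymes of the pentose phosphate pathway that yield NADPH, but 0.862 for Idh1 and 0.673 for Mdh1, cytosolic malate dehydrogenase. It was 4.52 for Aacs, which activates acetoacetate for lipid synthesis, and 2.30 for Insig1, which holds SREBP precursors in the endoplasmic reticulum. The ratio was 0.325 for Acsl1, which activates fatty acids, 0.425 for Gpat4, which esterifies them to glycerol, and 0.112 for Elovl3, an elongase of very long chains. Of the 8 hepatocyte markers 7 were below the median of the other Old livers, from 0.143 times for Cyp2e1 and 0.262 times for Tat to 0.951 times for Apob, while Alb stood at 1.35 times. The labelled traits of this mouse lay among those of the other Old mice: 37.8 g at the clamp, 55.7% suppression of glucose production, and 15.67 for basal and 45.72 for clamp insulin in label units.

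**Figure D3:**
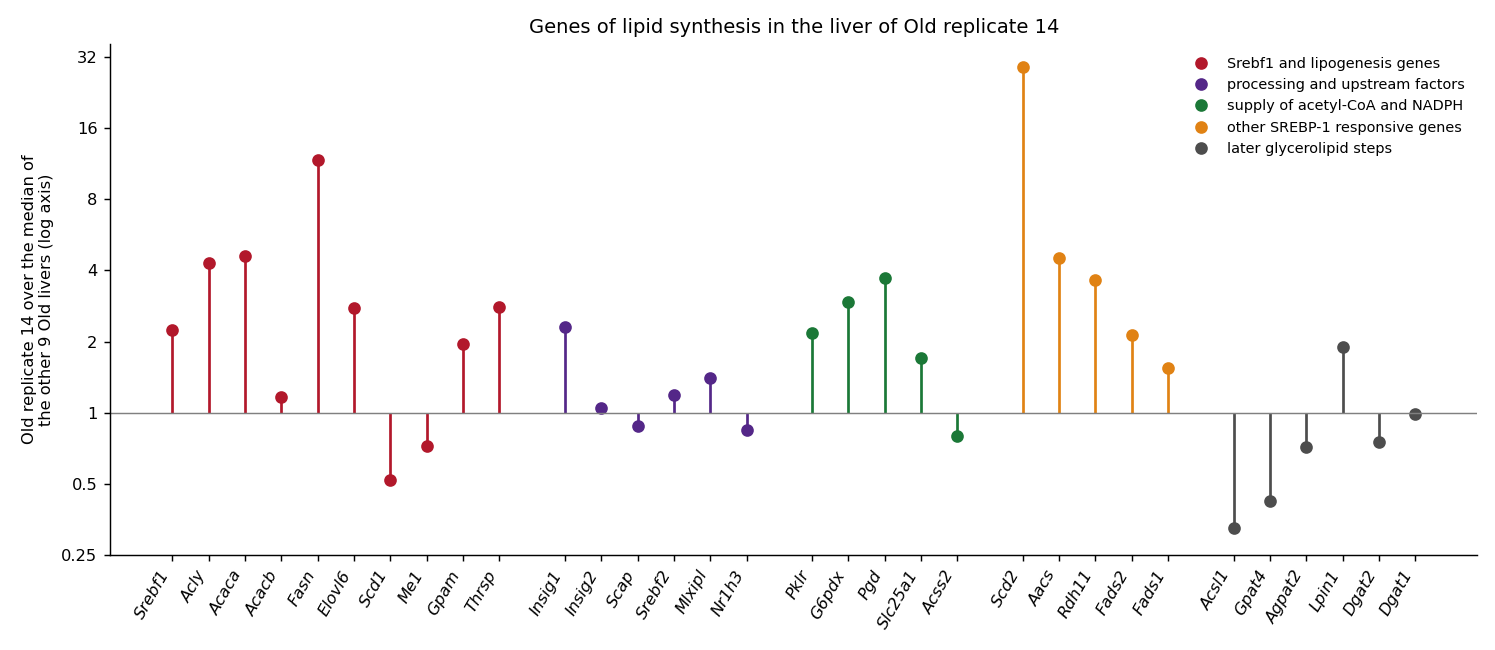
Ratio of the scaled TPM of Old replicate 14 to the median of the other 9 Old livers (log axis; 1 means no difference) for Srebf1 and the lipogenesis genes and for chosen genes of 4 related lists, coloured by list. Of the genes drawn, Scd2 at 29.0 and Fasn at 11.7 stand highest and Acsl1 at 0.325 lowest.

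Across livers of the same age the enzymes were compared with Srebf1, the factor known to raise them, in 18 relations adjusted together. In Old livers Pearson's r with Srebf1 on the log2 scale was 0.93 for Thrsp, 0.83 for Acaca, 0.78 for Fasn, 0.78 for Elovl6 and 0.74 for Acly, with two-sided permutation p adjusted to 0.0027, 0.0027, 0.0027, 0.016 and 0.0033. Spearman's rho was 0.89 for Thrsp, 0.81 for Acaca, 0.84 for Fasn, 0.58 for Elovl6 and 0.85 for Acly, with adjusted permutation p of 0.0202, 0.0256, 0.0205, 0.198 and 0.0205. Without the livers farthest from the Srebf1 median, Old replicates 8 and 14, r was 0.96 for Thrsp, 0.81 for Acaca, 0.80 for Fasn, 0.41 for Elovl6 and 0.72 for Acly. Leaving them out also narrows the range of Srebf1. For Elovl6 r was 0.69 without replicate 14 alone (adjusted exact permutation p = 0.0682), where it no longer passed. The raw permutation p was 0.00035 for Thrsp, 0.00042 for Acaca, 0.00045 for Fasn, 0.0062 for Elovl6 and 0.00073 for Acly.

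Without Old replicate 14 alone, r in the other 9 Old livers was 0.90 for Thrsp, Acaca and Fasn, 0.86 for Acly and 0.75 for Scd1, each with an adjusted exact permutation p under the threshold (0.00464 for the first 4 and 0.0414 for Scd1). With all Old livers Scd1 had an r of 0.32 (adjusted permutation p = 0.365). For Acacb, Me1 and Gpam r was 0.43, -0.34 and 0.37 in Old livers, with adjusted permutation p of 0.349, 0.354 and 0.354. Without Old replicates 8 and 14 r was 0.19 for Acacb, 0.67 for Me1, -0.013 for Gpam and 0.62 for Scd1, so that the sign turned for Me1 and Gpam. In Young livers r with Srebf1 was 0.93 for Acly, 0.89 for Fasn, 0.82 for Thrsp and 0.78 for Acaca, with adjusted exact permutation p of 0.00464, 0.0101, 0.0227 and 0.021. Spearman's rho in Young livers was 0.90 for Acly, 0.86 for Fasn, 0.67 for Thrsp and 0.60 for Acaca, with adjusted exact permutation p of 0.0205, 0.0321, 0.198 and 0.265. Without Young replicates 1 and 11, the 2 livers with the least Srebf1, r was 0.63 for Acly, 0.45 for Fasn, 0.64 for Thrsp and 0.25 for Acaca. With the kit mean taken out as well, r without them was 0.72 for Acly, 0.64 for Fasn, 0.58 for Thrsp and 0.43 for Acaca. The relation of Acaca in Young livers was thus weak without those livers, over a narrower range of Srebf1. With the kit mean taken out within each age, 9 of the 18 relations passed, as many as without that step. In Old livers r was then 0.92 for Thrsp, 0.86 for Acaca and 0.85 for Fasn and Acly. Relations with Srebf1 were computed for the other members alone, so no share of all genes stands beside the 9 of 18. Whether the members follow Srebf1 more closely than other genes do was not tested.

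**Figure D4:**
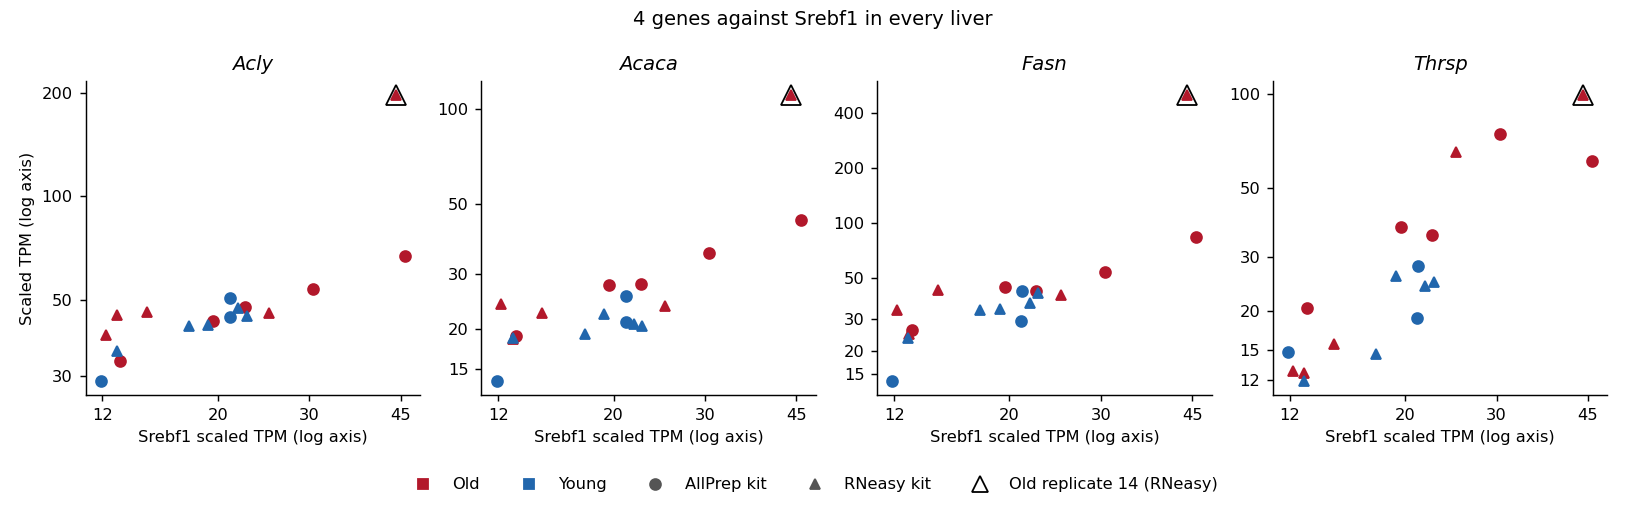
Scaled TPM of Acly, Acaca, Fasn and Thrsp (vertical, log axis) against that of Srebf1 (horizontal, log axis) in each Old (red) and Young (blue) liver; circles are AllPrep and triangles RNeasy libraries. Old replicate 14, outlined, lies far above the other livers for Acly, Acaca and Fasn at a Srebf1 level near that of Old replicate 8, and for Thrsp nearer to the rest.

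The members were next followed along traits of the mice, with age and kit as terms. Over all 18 livers no member slope was called for the weight at the clamp (0.072% of the genes tested were called), liver glycogen, suppression of glucose production or basal insulin (0% each). Per within-age SD of clamp weight (5.235 g) the log2 level of Thrsp changed by 0.62 ± 0.20 (SE; adjusted p = 0.157 by limma) and that of Srebf1 by 0.37 ± 0.14 (adjusted p = 0.217). Without Old replicate 14 both rose with clamp weight, Thrsp by 0.72 ± 0.12 (SE; adjusted p = 0.0149 by limma) and Srebf1 by 0.44 ± 0.10 (adjusted p = 0.0441), where 1.2% of the genes tested were called. The slopes of Fasn (0.38 ± 0.12, adjusted p = 0.104), Acaca (0.24 ± 0.07, adjusted p = 0.0969) and Acly (0.19 ± 0.06, adjusted p = 0.101) did not pass there. With no kit term and all libraries Thrsp alone of the members was called, at 0.53 ± 0.16 (adjusted p = 0.048; 9.96% of the genes tested).

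Weight at the clamp was 35.1 to 55 g in Old mice and 26.6 to 34.8 g in Young mice, so the ages do not overlap and the slope compares mice of 1 age. The Old livers of mice at 45.5 g or more held 35.2 to 74.1 scaled TPM of Thrsp, and those of mice at 40.3 g or less, without replicate 14, held 12.7 to 20.5. Of the heavier mice, replicates 7, 8, 9 and 18 were AllPrep and 15 was RNeasy. Of the lighter, 5 was AllPrep and 6, 16 and 17 were RNeasy, so weight and kit largely went together in this split. Without Old replicate 14 the slope of Thrsp was 0.73 in Old livers and 0.64 in Young livers, and 0.57 in AllPrep and 0.94 in RNeasy libraries. That of Srebf1 was 0.39 in Old and 0.50 in Young livers, and 0.42 in both kits; no gene was called in any of these smaller sets. With 1 further library left out, Thrsp stayed called in 16 of 17 fits (not without Young replicate 1, adjusted p = 0.0715), with 0.0432% to 1.84% of all genes called in these fits. Srebf1 stayed called in 6 of 17, and was lost without Old replicate 5, 7, 15, 17 or 18 or Young replicate 1, 2, 4, 11, 12 or 13, with adjusted p from 0.0535 to 0.196.

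**Figure D5:**
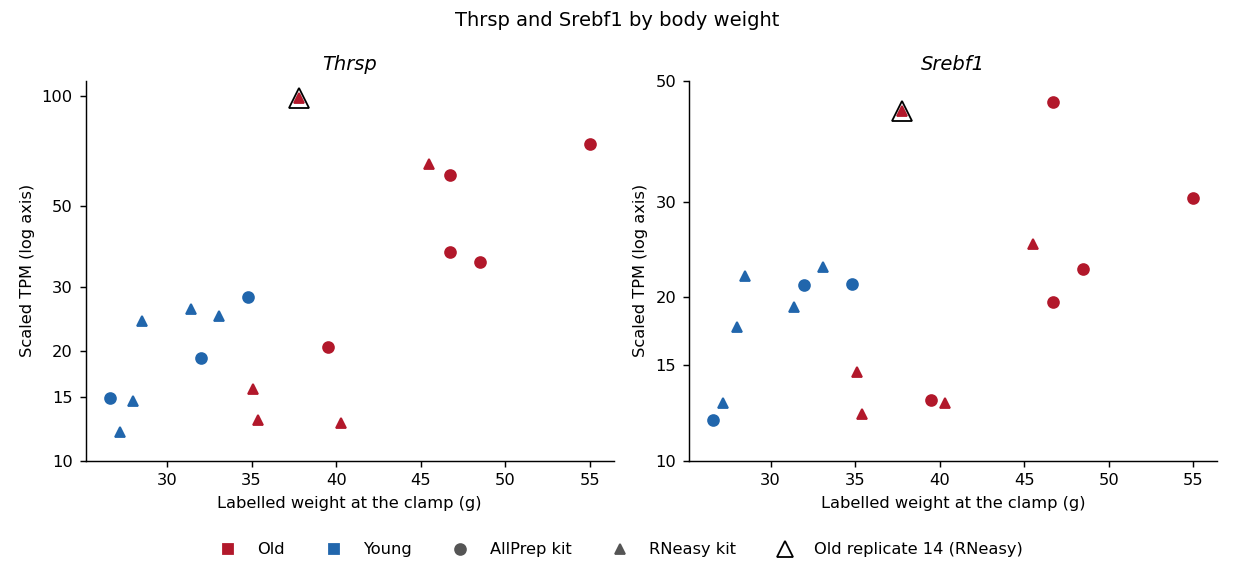
Scaled TPM (log axis) of Thrsp and of Srebf1 against the labelled weight at the clamp in g, for each Old (red) and Young (blue) liver; circles are AllPrep and triangles RNeasy libraries. The Old mice at 45.5 g or more hold more Thrsp than the lighter Old mice, except for Old replicate 14, outlined, with 99.0 scaled TPM at 37.8 g.

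The labels also give a weight on leaving the metabolic cage for 7 Old and 7 Young mice, and it could differ widely from the clamp weight: 48.6 g and 35.1 g for Old replicate 6, and 34.2 g and 46.7 g for Old replicate 9. In these 14 mice, chosen as a check after the slopes were seen, no relation with cage weight was called (0% of the genes tested). Per within-age SD of cage weight the slope was 0.08 ± 0.21 for Thrsp (SE; adjusted p = 1 by limma) and 0.19 ± 0.15 for Srebf1 (adjusted p = 1), or 0.13 ± 0.19 and 0.23 ± 0.13 without Old replicate 14. In the same mice the slope on clamp weight was 0.68 ± 0.11 for Thrsp (limma adjusted p = 0.055) and 0.42 ± 0.12 for Srebf1 (adjusted p = 0.142) without Old replicate 14, with 0.0504% of the genes tested called. Scd1 had the smallest p of the members for liver glycogen, at a slope of -0.55 ± 0.13 per SD (unadjusted limma p = 0.000584, adjusted p = 0.998); it did not pass.

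Of the factors that process SREBP-1 or act with it, 1 of 18 was higher and 0 lower in Old livers, against 2.44% higher and 2.47% lower over all genes tested; a single call in a list of this size is near that share. It was Nfya, a subunit of the CCAAT-binding factor NF-Y, with 6.01, 7.41 and 9.59 scaled TPM at the lowest, median and highest Old liver and 3.94, 5.06 and 6.56 in Young livers. All 10 Old livers were above the Young median, and the log2 fold was 0.56 ± 0.08 (SE; adjusted p = 0.00277 by limma), or 0.52 without Old replicate 14 (adjusted p = 0.00176). Mbtps1, the first protease that cleaves the precursor, stood at 0.13 (adjusted p = 0.101), and Mbtps2, the second, at -0.19 (adjusted p = 0.121; 0.0411 without Old replicate 17). The median over these 18 genes was 0.014 on the log2 scale, beside 0.0037 over all genes.

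Of the genes that supply acetyl-CoA, glycolytic carbon or NADPH, Pklr and Idh1 did not pass the test. Pklr, liver pyruvate kinase, stood at 0.54 (adjusted p = 0.127) and Idh1, cytosolic isocitrate dehydrogenase, at -0.13 (adjusted p = 0.178).

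Of 9 genes that control acetyl-CoA carboxylase, 0 were higher and 1 was lower, against 2.44% and 2.47% over all genes tested. Prkaa2, a catalytic subunit of AMP-activated protein kinase, which phosphorylates and restrains the carboxylases, had 25.1, 28.1 and 34.1 scaled TPM in Old livers and 31.9, 36.2 and 40.7 in Young livers, with every Old liver below the Young median. Its log2 fold was -0.31 ± 0.06 (SE; adjusted p = 0.0126 by limma), and -0.29 without Old replicate 14 (adjusted p = 0.0119). Prkag1, a regulatory subunit of the same kinase, fell by 0.20 without that liver (adjusted p = 0.0275; 0.0418 without Old replicate 16) and stood at -0.18 with it (adjusted p = 0.0653). Mid1ip1 stood at 0.53 (adjusted p = 0.109).

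Of 6 tested genes on a list of 8 other SREBP-1 responsive lipid genes, 0 were called, against 4.91% of all genes tested. Fads1, a desaturase of polyunsaturated fatty acids, stood at 0.38 (limma adjusted p = 0.0797; 0.0495 without Old replicate 16), Aacs at 0.70 (adjusted p = 0.167) and Scd2 at 0.65 (adjusted p = 0.481), or 0.08 for Scd2 without Old replicate 14. All 6 lay above 0, beside 50.9% of all genes tested, with a median of 0.28. Without that liver 4 lay above 0 and 2 below, beside 52.5% of all genes above 0, and the median was 0.095. In RNeasy libraries without it 3 lay above 0 and 3 below.

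Of 11 genes of later glycerolipid steps, 0 were higher and 1 was lower, beside 2.44% and 2.47% over all genes tested. Dgat1, which makes triglyceride from diglyceride, had 11.4, 13.5 and 16.7 scaled TPM in Old livers and 14.9, 16.0 and 18.2 in Young livers, a log2 fold of -0.23 ± 0.06 (SE; adjusted p = 0.0358 by limma). It lost the call with no composition factor (adjusted p = 0.0841) and in 10 of the 18 fits that left out a library, with adjusted p up to 0.065. Lpin1, a phosphatidate phosphatase, fell by 0.64 without Old replicate 14 (adjusted p = 0.0174) and stood at -0.51 with it (adjusted p = 0.112). Lpin2 stood at -0.41 (adjusted p = 0.125). Among 13 tested paralogues of the members, 0 were called over all libraries; without Old replicate 14 Gpat2, a paralogue of Gpam of low level, was higher by 0.27 (adjusted p = 0.0408; 0.0952 with it, 0.05 without Old replicate 16), and Scd3, a desaturase paralogue, stood at 0.77 (adjusted p = 0.0827). Nfya, Prkaa2 and Dgat1 were not called in either kit alone or with clamp weight as a further term.

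The genes most like the members, other than the members themselves, were sought by Spearman's rho between a gene's residual from age and kit and the mean standardized residual of the 10 genes, over 18 livers and 12244 genes. The 8 highest were Robo1 (0.93), Aqp8 (0.93), Cyb5r3 (0.92), Fads1 (0.92), Mr1 (0.91), Ntn3 (0.91), Marveld1 (0.89) and Myo1d (0.89). Without Old replicate 14, 5 of these 8 were again among the 8 highest, with Robo1 first at 0.91. Each member was set against the mean of the other 9 in the same way: rho was 0.91 for Acaca, 0.86 for Fasn, 0.81 for Acly, 0.79 for Srebf1, 0.78 for Elovl6 and 0.78 for Thrsp. It was 0.53 for Acacb, 0.52 for Scd1, 0.46 for Gpam and -0.19 for Me1. By place among the 12244 genes, Acaca stood at 6, Fasn at 18, Acly at 70 and Srebf1 at 95. Elovl6 stood at 111, Thrsp at 122, Acacb at 1160, Scd1 at 1198, Gpam at 1570 and Me1 at 7891. Without Old replicate 14 rho was 0.90 for Acaca, 0.86 for Fasn, 0.84 for Srebf1, 0.81 for Thrsp and 0.75 for Acly. It was then 0.72 for Scd1, 0.63 for Elovl6, 0.48 for Acacb, 0.30 for Gpam and 0.032 for Me1. Among the members Acaca lay closest to the common pattern and Me1 farthest, with and without that liver. These are descriptions over livers that share kits and 1 liver that stands apart.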

How the data were processed

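Bulk liver RNA of 10 Old and 8 Young mice was sequenced after rRNA depletion, per the labels' protocols. The deposited table holds TPM, and each library sums to 1000000 over 18946 genes. STAR 2.7.9a, Subread and featureCounts and the builds GRCm39 and mm10 are named per the submitters' processing notes, with no role for each; the annotation and strand setting were not given in the sources used here. Near-identical copies and overlapping or antisense genes are therefore uncertain. Whole reads were recovered from the whole-number ratios between libraries for 18946 of 18946 genes (tolerance 0.0001), 85790735 to 127487820 per library.

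Age was tested on log2(scaled TPM + 0.5) with limma 3.58.1 in R 4.3.3, with a variance trend and age and kit as terms, over 13895 genes that reached 0.5 TPM in 8 or more libraries; all 10 members passed this filter. The composition factor was a trimmed mean of log ratios (30% of ratios and 5% of levels trimmed). Benjamini-Hochberg adjusted p-values under 0.05 over all genes tested were counted as calls. Folds on this scale understate changes of low genes. Trait slopes had age and kit as terms. Relations with Srebf1 used two-sided permutations, 100000 for 10 Old livers and exact for 8 or 9 livers. Ages and traits came from the labels. The fits were also run on simulated reads with the same relative spread for every gene. That simulation held no kit difference and no liver that stands apart, so it does not cover those features of the data. Python 3.11.15, numpy 2.4.6, pandas 2.3.3, scipy 1.17.1 and matplotlib 3.10.9 did the rest. The members, the lists and the rule for named genes (all members; per list those called with or without Old replicate 14 and the 3 smallest p; the 8 genes most like the members) were chosen with earlier results of these data known. Genes shown for Old replicate 14 beyond that rule were chosen after their values were seen. A result of the acetyl-CoA, glycolytic carbon and NADPH supply list is not reported here, and no count is given for that list. Alternatives covered the libraries, kits, scaling, pseudocount, filter, library weights, limma-voom on recovered reads (653 genes called) and clamp weight.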

Additional observations from a re-analysis of the deposited data

Results flagged for a closer look

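In the Old group 5 of the 10 genes had 1 liver far from the others, judged by its gap to the nearest liver over the range of the group, and it was replicate 14 each time. The value was 500.359 scaled TPM for Fasn (next 84.1), 110.484 for Acaca (next 44.5), 196.475 for Acly (next 66.8), 68.6918 for Elovl6 (next 44.2) and 169.593 for Gpam (next 101.1). Of 20 groups looked at (10 genes in 2 ages) 5 were marked, and the 5 come from a single library. The rule was not run over all genes, so no share of marked genes stands beside this count. Over all genes tested replicate 14 was the highest Old liver for 22.1% and the lowest for 29.5%. No Young group was marked. Why this liver differs was not tested.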

How the results depend on the processing

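The count of members called for age was 0 and became 1 without Old replicate 14, with no composition factor, with library quality weights and with limma-voom without Old replicate 14 (Gpam each time), and ranged from 0 to 1 when each library was left out. It stayed 0 with no kit term, each kit alone, median-of-ratios factors, pseudocounts of 0.1 and 1, no filter, limma-voom with all libraries and clamp weight as a term. Of 310 age differences of single members under another setting 296 kept their direction and side of the threshold, 7 passed it and 7 reversed. With clamp weight as a term, whose range does not overlap between the ages, the log2 folds were -0.64 for Srebf1, -0.012 for Acacb, -0.42 for Scd1 and -0.70 for Thrsp. In RNeasy libraries Scd1 stood at -0.17, and without Old replicate 14 at -0.075, with Srebf1 at -0.26. Of the other named genes, clamp weight as a term turned Mbtps1 to -0.0034, Pklr to -0.095, Lpin2 to 0.11 and Scd3 to -0.092, and Scd2 was -0.16 in RNeasy libraries without Old replicate 14. The causes were not tested. Member slopes on traits called numbered 0, 2 without Old replicate 14 (Thrsp and Srebf1 on clamp weight) and 1 with no kit term (Thrsp). The relations with Srebf1 that passed numbered 9 under each setting, a count that was not made over all genes. Without Old replicate 14 the relation of Elovl6 in Old livers was lost and that of Scd1 gained. That of Gpam in Old livers turned to -0.31 without Old replicate 14. No paired analysis was possible because no replicate number occurs in both ages. The AllPrep values rest on 3 Young livers; depth was not varied.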

Other observations

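Young replicate 1, an AllPrep library, was the lowest Young liver for 8 of the 10 genes and the highest for Me1. It had 13.7 scaled TPM of Fasn and 176.4 of Me1. Over all genes tested it was lowest for 23.5% and highest for 21.5%. It was the lightest mouse at the clamp, at 26.6 g. Young replicate 13 was the highest Young liver for 5 of the 10 genes and weighed 34.8 g, the most among Young mice; it was highest for 18% of all genes tested. Old replicate 8 was the highest Old liver for 2 of the 10, Srebf1 and Scd1, and for 10.3% of all genes tested.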
